A study of Bos taurus with 8 samples.

Results

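The gonadotrophin receptors FSHR and LHCGR, the hormone AMH (anti-Müllerian hormone) and its receptor AMHR2 were followed in granulosa cells of atretic and plateau follicles. The members were taken by gene symbol in the annotation of the array, which gave all 4 genes, of 15216 with a symbol, and 5 probes of 43794 (1 each for FSHR, AMH and AMHR2 and 2 for LHCGR). All 5 had a mean log2 intensity of at least 7 and were tested together with every other such probe, 33519 in total. The mural granulosa layer had been scraped from single follicles of more than 9 mm on ovaries of Holstein dairy cattle from a slaughterhouse, and its RNA was amplified linearly. Atretic follicles, which are regressing, and plateau follicles, whose cells divide less as growth slows, were separated in the study by flow cytometry of DNA content, so that the group is that of the follicle and not of each cell. The stage of the oestrous cycle and the reproductive status of the animals were unknown to the study. Each of 8 two-colour EmbryoGENE bovine arrays held RNA of 1 atretic and 1 plateau follicle. Slide 205 carried the atretic side in Cy5, and slide 206 had the dyes exchanged. Arrays with the same position on both slides were averaged as 1 pair of follicles, which left 4 pairs. No label says whether the follicles came from different cows, so p-values measure only the spread between these 4 pairs. Defining markers of the labelled cell type were present. Of 10 granulosa markers, 6 were above the negative control spots on all arrays in both groups, INHA and INHBA among them. GATM was above them on the fewest, 7 arrays in atretic and 6 in plateau follicles.

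FSHR and LHCGR are receptors that couple mainly to the stimulatory G protein and raise cyclic AMP. In the ovary FSHR is carried by granulosa cells, whereas LHCGR is carried by theca cells throughout and is acquired by granulosa cells of the dominant follicle. AMH is a hormone of the TGF beta family made by granulosa cells of small growing follicles, which binds the type II receptor AMHR2 and lowers the response to FSH.

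None of the 4 genes passed as higher or lower in atretic than in plateau follicles in the fit of the 4 pairs, and all of them differed strongly within single pairs. With limma and Benjamini-Hochberg adjustment over all tested probes, 0 of 5 member probes passed an adjusted p of 0.05, as did 0 of 33519 probes (0%), with a lowest adjusted p of 0.166. In limma with all 8 arrays and a replicate block for the pair, 549 of the tested probes passed, and the smallest adjusted p of a member was the 0.182 of AMHR2. That fit counts both arrays of the same follicles, with 1 correlation for all probes. It can thus give too small a p to a probe whose arrays of a pair are more alike. In the fit of the 4 pairs, the count at an unadjusted p of 0.05 was 0 of 5, beside 7.53% of all tested probes. Under the criterion of the study (at least 1.5-fold, with an unadjusted p of 0.05) it was again 0 of 5, beside 4.16% of all tested probes. Yet each of the 5 probes differed at least 2-fold in the same direction on both arrays of at least 1 pair, which was so for 16.6% of all tested probes. Differences of at least 4-fold in 1 or more pairs were found for 4 of 5, all but the dimmer LHCGR probe, against 3.98% of tested probes.

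**Figure D1:**
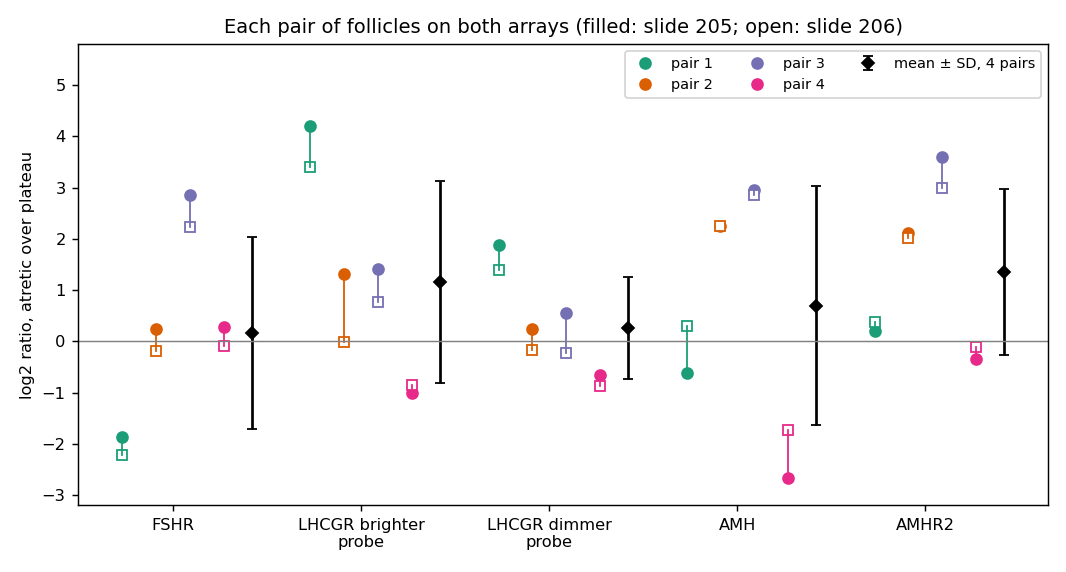
Log2 ratio of atretic over plateau follicles (y axis) of each member probe (x axis) in the 4 pairs, with both arrays of a pair as joined points and the mean ± SD over pairs as a black diamond. The pairs of FSHR lie between -2.04 and 2.54 and those of AMH between -2.20 and 2.90, on both sides of 0, and the joined points of the large differences stay on 1 side.

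FSHR was opposite in pair 1 and pair 3 and equal in the other pairs to within the difference between arrays. Its log2 levels were 9.60, 9.69, 10.49 and 10.04 in atretic follicles 1 to 4, against 11.72, 9.67, 7.92 and 9.96 in plateau follicles 1 to 4. The atretic follicles thus lay inside the range of the plateau follicles, which held both the highest and the lowest of the 8 values. The log2 ratio of atretic over plateau was -2.04 in pair 1 (-1.87 and -2.21 on its arrays), which was 4.11-fold higher in the plateau follicle. In pair 3 it was 2.54 (2.86 and 2.23), or 5.83-fold higher in the atretic follicle. In pairs 2 and 4 it was 0.03 and 0.09, and there the arrays of opposite dye differed in sign. The mean over pairs was 0.16 ± 1.87 (SD, n = 4), with a 95% interval from limma of -1.63 to 1.94 and an adjusted p of 0.978 in limma. Ordered by level, plateau follicle 3 stood apart at the low end and atretic follicle 3 and plateau follicle 1 at the high end. The steps between the other 5, which spanned 9.60 to 10.04, were smaller than the gap between the arrays of 1 follicle.

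LHCGR, measured by 2 probes, was highest in the follicles of pairs 1 and 4 in both groups, and these pairs ran in opposite directions. By the brighter probe its log2 levels were 12.98, 7.62, 8.27 and 11.49 in atretic follicles 1 to 4, against 9.21, 6.93, 7.20 and 12.47 in plateau follicles 1 to 4. Both groups held follicles with a high level and follicles close to the negative controls, whose 95th percentile was 7.01 to 7.36, and the groups overlapped over nearly their whole range. Pair 1 was 13.97-fold higher in the atretic follicle (log2 ratio 3.80, with 4.20 and 3.41 on its arrays). The other pairs had log2 ratios of 0.65, 1.09 and -0.93 for pairs 2, 3 and 4, so that only pair 4 was higher in the plateau follicle. Both plateau values behind pairs 2 and 3 were under the negative control percentile on slide 205, and the ratio of pair 2 was 1.31 on that slide and -0.01 on slide 206. In the order of levels, plateau follicles 2 and 3 were the neighbours that did not differ beyond the gap between arrays. The mean was 1.15 ± 1.97 (SD, n = 4), with an interval of -0.72 to 3.03 and an adjusted p of 0.796 in limma.

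The dimmer LHCGR probe followed the brighter one with smaller differences. It had log2 ratios of 1.63, 0.03, 0.16 and -0.77 for pairs 1 to 4. In pairs 2 and 3 it was not above the negative controls in either follicle, on any array, and these ratios carry no measured difference. Its log2 levels were 9.22 and 8.29 in atretic follicles 1 and 4, against 7.55 and 9.07 in plateau follicles 1 and 4. The mean ratio was 0.26 ± 1.00 (SD, n = 4), with an interval of -0.71 to 1.24 and an adjusted p of 0.917 in limma. Over the 8 follicles, Pearson's r between the levels of both probes was 0.978, from spots on the same arrays. Both ranked atretic follicle 1, plateau follicle 4, atretic follicle 4 and plateau follicle 1 as the highest, in that order, though by the dimmer probe the step between the first and second was within the gap between arrays.

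AMH, the ligand, was higher in the atretic follicle of pairs 2 and 3 and lower in that of pair 4. Its log2 levels were 12.26, 9.52, 10.07 and 11.17 in atretic follicles 1 to 4, against 12.54, 7.43, 7.14 and 13.39 in plateau follicles 1 to 4. All 4 atretic follicles again fell inside the range of the plateau follicles, which took the lowest 2 and the highest 2 places of the 8. The log2 ratios were 2.25 in pair 2 and 2.90 in pair 3, or 4.75-fold and 7.47-fold higher in the atretic follicle. The plateau follicles of both pairs lay near the negative controls, so these folds are limited by signal over background. Plateau follicle 3 was under the negative control percentile on slide 205. Plateau follicle 2 was little above it on both slides, at 7.46 against 7.24 and 7.39 against 7.29. In pair 4 the ratio was -2.20 (-2.67 and -1.73 on its arrays), which was 4.60-fold higher in the plateau follicle. Pair 1 gave -0.16, with arrays of opposite sign (-0.62 and 0.31). The mean was 0.70 ± 2.34 (SD, n = 4), with an interval of -1.52 to 2.92 and an adjusted p of 0.908 in limma. Atretic follicle 1 and plateau follicle 1 were the only neighbours in the order of levels that did not differ by more than the gap between arrays. Plateau follicles 3 and 2 barely did, with a step of 0.287 against a gap of 0.281.

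AMHR2, the type II receptor of AMH, had the smallest p of the members without passing the threshold. Its log2 levels were 10.56, 10.98, 10.09 and 9.84 in atretic follicles 1 to 4, against 10.29, 9.00, 6.79 and 10.08 in plateau follicles 1 to 4. The atretic follicles were close to each other, plateau follicles 1 and 4 lay among them, and plateau follicles 2 and 3 lay under all of them. Atretic follicle 3 and plateau follicle 4 were the neighbours in level within the gap between arrays. The log2 ratios were 0.28, 2.07, 3.29 and -0.23 in pairs 1 to 4, with the same sign on both arrays of every pair. Pair 2 was 4.20-fold and pair 3 9.75-fold higher in the atretic follicle, and the plateau follicle of pair 3 was not above the negative controls on either array. The mean was 1.35 ± 1.62 (SD, n = 4), higher in the atretic follicle of 3 of 4 pairs, with an interval of -0.20 to 2.90 and an unadjusted p of 0.0758 and an adjusted p of 0.703 in limma. Without pair 4 the mean was 1.88 and the unadjusted limma p was 0.0343 (adjusted p = 0.761). Under the replicate block, which uses a single correlation estimated for all probes, its unadjusted limma p was 0.00802 and its adjusted p 0.182. The arrays of a pair differed by a median of 0.21 for AMHR2, while its pairs spanned 3.51, so the single correlation can make these p-values too small.

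An exact sign-flip test over the 4 pairs, which cannot give a two-sided p under 0.125, gave 0.625 for FSHR, 0.375 and 0.625 for the brighter and the dimmer LHCGR probe, 0.625 for AMH and 0.25 for AMHR2. None of the 5 probes kept 1 sign in all 4 pairs, against 15.6% of tested probes that did.

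**Figure D2:**
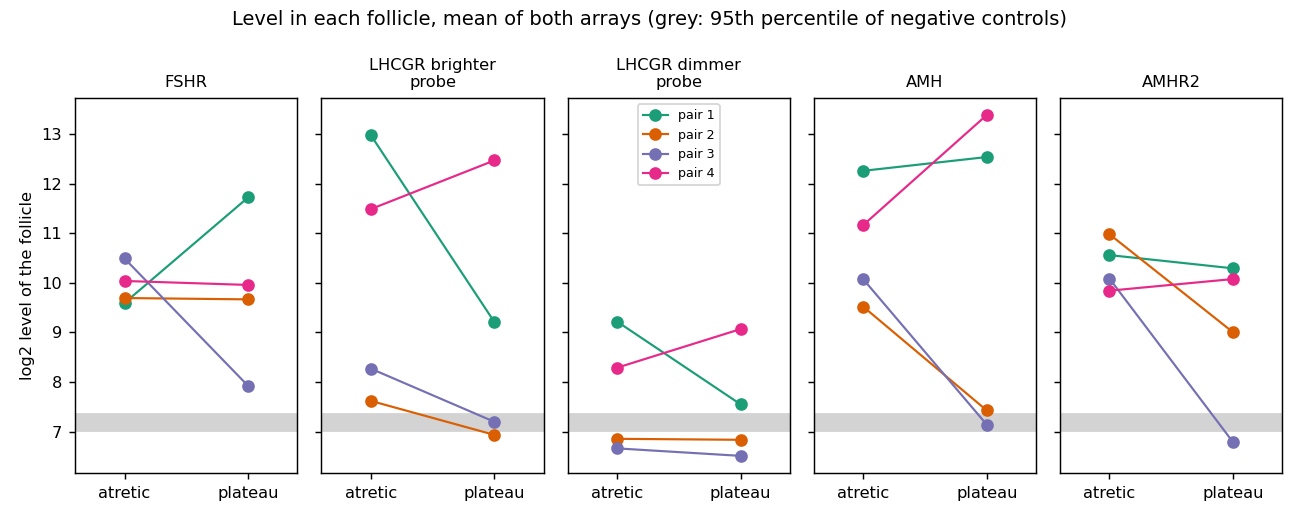
Log2 level of each member probe (y axis, 1 panel per probe) in the 4 atretic follicles at the left and the 4 plateau follicles at the right, with lines joining the follicles of a pair and a grey band for the 95th percentile of the negative controls (7.01 to 7.36). Levels are comparable within a panel only. The plateau follicles of FSHR, AMH and AMHR2 spread wider than the atretic follicles, while the groups of LHCGR spread alike. The lowest plateau follicles of AMH and AMHR2 lie near or under the grey band.

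The spread between pairs was larger for these genes than for most probes of the array, and some other gene lists also spread widely. The SD of the log2 ratio over pairs was 1.87 for FSHR, 1.97 and 1.00 for the brighter and the dimmer LHCGR probe, 2.34 for AMH and 1.62 for AMHR2. The median was 0.323 over all tested probes and 0.397 over genes by their brightest probe. The median SD was 1.46 over 14 genes responsive to FSH and 1.34 over the 10 granulosa markers, which share genes, and 2.11 over the 9 stroma markers. In the other lists it lay between 0.21 (endothelium markers) and 1.42 (smooth muscle and pericyte markers). An SD as large as that of the member probe was found for 0.725% of tested probes in the case of FSHR, 0.585% and 5.93% for the LHCGR probes, 0.304% for AMH and 1.14% for AMHR2. The tested probes reach down to the level of the negative controls, and no share of tested probes given here was matched for intensity. FSHR and AMH were at least 2-fold higher in the atretic follicle on both arrays of 1 pair and at least 2-fold lower on both arrays of another, which 1.23% of tested probes were. The arrays of a pair, which carry the same RNA in exchanged dyes, differed by at most 0.63 for FSHR, 0.94 for AMH and 0.61 for AMHR2 on the log2 scale. For LHCGR the largest gap was 1.32 by the brighter and 0.79 by the dimmer probe.

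**Figure D3:**
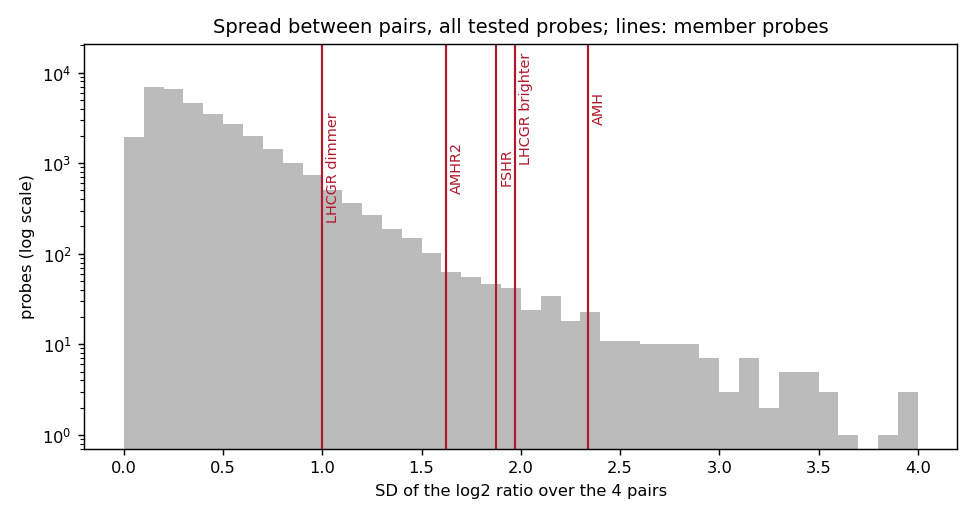
Number of tested probes (y axis, log scale) by the SD of their log2 ratio over the 4 pairs (x axis), with red lines at the member probes. The lines stand between 1.00 and 2.34, to the right of the median of 0.323.

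The spread of levels within a group also differed between the genes. For FSHR the SD of the log2 level was 0.41 in atretic and 1.56 in plateau follicles, for AMH 1.21 and 3.30, and for AMHR2 0.51 and 1.60 (n = 4 each). For LHCGR it was 2.56 in both groups by the brighter probe. A ratio of plateau SD over atretic SD as high as that of FSHR (3.84) was found for 4.55% of tested probes, as high as that of AMHR2 (3.17) for 7.12% and as high as that of AMH (2.72) for 10.1%, with a median of 1.15 over all tested probes. Without pair 3 the SD of AMHR2 was 0.58 in atretic and 0.69 in plateau follicles, so its wider plateau spread rested on plateau follicle 3. FSHR without pair 3 still had 0.23 in atretic and 1.11 in plateau follicles, and AMH had 1.38 and 3.22. The lowest plateau levels were 7.14 and 7.43 for AMH (follicles 3 and 2) and 6.79 for AMHR2 (follicle 3). These lay near or under the 95th percentile of the negative controls (7.01 to 7.36), so the plateau SDs of AMH and AMHR2 are limited by signal over background.

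Levels of the members, with LHCGR by its brighter probe, were compared as a description over 8 follicles that share arrays and slides. Pearson's r was 0.839 for LHCGR and AMH, 0.697 for FSHR and AMHR2 and 0.676 for AMH and AMHR2. It was 0.625 for FSHR and AMH, 0.439 for LHCGR and AMHR2 and 0.203 for FSHR and LHCGR. Spearman's rho was 0.857 for LHCGR and AMH, 0.548 for FSHR and AMH and 0.429 for AMH and AMHR2. For LHCGR and AMHR2 it was also 0.429, for FSHR and AMHR2 0.286 and for FSHR and LHCGR 0.238. The order differed by log2 ratios over the 8 arrays, which hold 4 pairs measured on 2 slides. There r was 0.946 for AMH and AMHR2, 0.759 for FSHR and AMHR2 and 0.518 for FSHR and AMH. It was 0.189 for LHCGR and AMH, 0.00779 for LHCGR and AMHR2 and -0.475 for FSHR and LHCGR. LHCGR and FSHR lie next to each other on 1 chromosome in the RefSeq gene records of assembly ARS-UCD2.0, with 0 other gene records between them.

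Marker lists of other cells also differed within pairs, above all the stroma list in pair 3, where it ran opposite to FSHR, AMH and AMHR2. The 9 stroma markers, matrix genes of fibroblasts, had a mean log2 ratio of -3.32 in pair 3, against 1.29, -0.84 and -0.05 in pairs 1, 2 and 4. Their mean log2 level was 7.85 to 9.22 in the atretic follicles and 11.4 in plateau follicle 3, with 7.91 to 8.66 in the other plateau follicles. COL1A2, COL3A1 and LUM, which encode 2 collagen chains and a matrix proteoglycan, had the largest log2 ratios in pair 3, at -6.93, -6.33 and -5.36. Of the 9, 7 were lower in the atretic follicle of that pair and 2 were not, OGN at 0.31 and FBLN1 at 0.66. By their mean the 10 granulosa markers went the other way, at 1.84 in pair 3 and 0.62 in pair 2, with 0.09 in pair 1 and -0.16 in pair 4. In pair 3, 8 of them were higher in the atretic follicle and 2 lower, GATM at -1.14 and CDH2 at -2.38. INHA, INHBA and SERPINE2 of this list were each at the highest value of the scanner in 7 of 16 readings, and no reading of FSHR, LHCGR, AMH or AMHR2 was. The mean log2 level of the 10 granulosa markers was lowest in plateau follicle 3, at 10.7, and next lowest in plateau follicle 2, at 11.6. It was 12.1 to 12.9 in the atretic follicles and 12.8 and 13.1 in plateau follicles 1 and 4. In these bulk samples fewer granulosa cells and less RNA of a gene per granulosa cell cannot be told apart. FSHR, AMH and AMHR2 had their largest ratios in the direction of the atretic follicle in pair 3, and the part of other cells in this was not tested. Without pair 3 the mean log2 ratio was -0.64 for FSHR, -0.04 for AMH and 0.71 for AMHR2.

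The 7 smooth muscle and pericyte markers had mean log2 ratios of 0.34, -0.14, -1.39 and -0.67 in pairs 1 to 4. In pair 3 the contractile genes CNN1 and MYH11 were opposite, at -6.47 and 5.04.

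The theca list as a whole moved less than the stroma list. The 6 tested theca markers had mean log2 ratios of 0.44, 0.15, -0.25 and -0.18 in pairs 1 to 4, and mean levels of 8.68 to 9.15 in atretic and 8.59 to 9.32 in plateau follicles. CYP17A1, the theca enzyme of androgen synthesis, was 1.77 on the log2 scale in pair 1, the pair in which LHCGR was highest in the atretic follicle, and -0.05, -0.86 and -0.89 in pairs 2, 3 and 4. In pair 3 PDGFRA, a growth factor receptor of mesenchymal cells, was at -3.90 and PTCH1, the hedgehog receptor, at 2.61. INSL3, a hormone of theca cells, had 0.43, 0.42, 0.22 and -0.17. In pair 1, 7 of the 9 stroma markers were also higher in the atretic follicle, with DCN and LUM the highest at 4.15 and 2.91, and COL1A1 (-0.18) and POSTN (-0.23) were lower. In its qRT-PCR the study set aside an atretic sample for theca contamination, judged by CYP17A1. By the wording of the study all 4 hybridized samples of each stage were kept there. The sample set aside would then be an additional one, though the labels do not tell whether any array holds it. The part of theca or stroma cells in the LHCGR value of pair 1 was not tested. Without pair 1 the mean log2 ratio of the brighter LHCGR probe was 0.27. The 8 tested macrophage markers had means of 0.42, -1.08, -0.95 and -0.19 in pairs 1 to 4. In pair 2, 7 of the 8 were lower in the atretic follicle and 1 was higher, and in pair 3 all 8 were lower. Their mean log2 level was 9.04 and 9.35 in plateau follicles 2 and 3 and 7.26 and 7.75 in plateau follicles 1 and 4. In the atretic follicles it was 7.55 to 8.34. The part of other cells in the AMH and AMHR2 ratios of pair 2 was not tested. By their means the endothelial, red blood cell and oocyte lists stayed between -0.23 and 0.24 in every pair. Single endothelial genes differed more, with CLDN5 at -2.54 and KDR at 0.95 in pair 3. CSF1R of macrophages, HBM of red blood cells and NLRP5 of oocytes were above the negative controls on no array. Other genes of these lists were, with CTSS and PTPRC (macrophage list) and HBA (red blood cell list) above them on all 8 arrays in both groups. BMP15 of the oocyte list was above them on 7 arrays in atretic and 6 in plateau follicles.

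**Figure D4:**
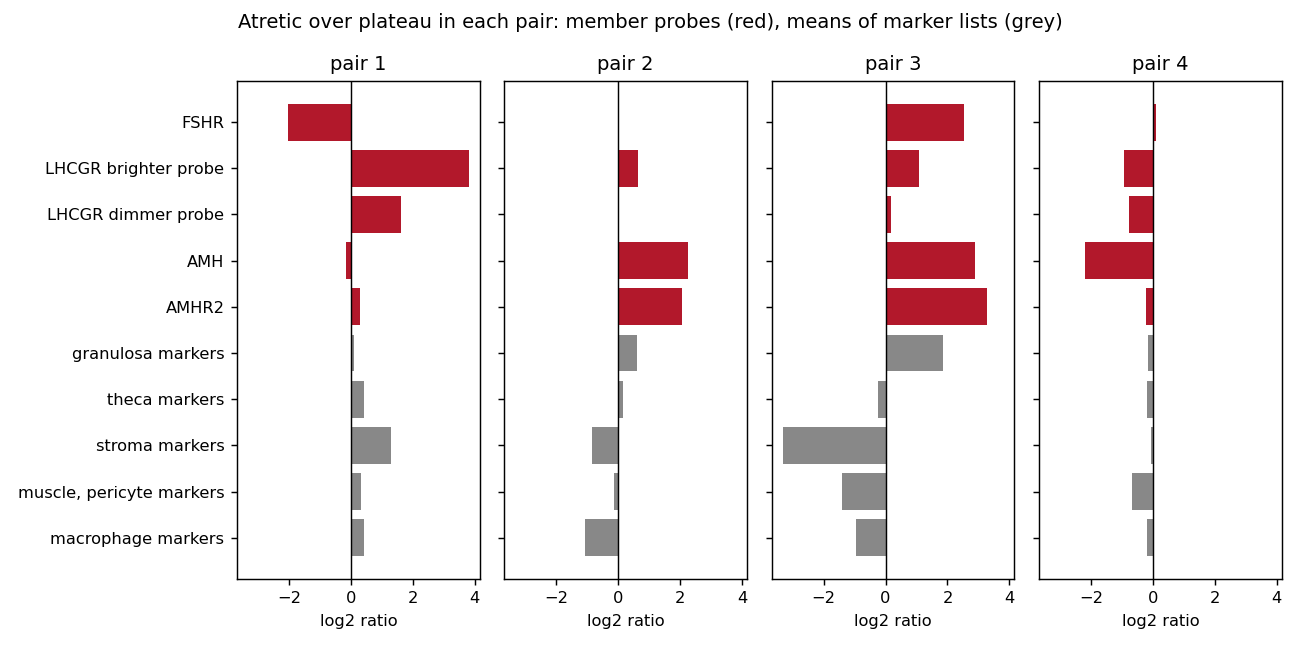
Log2 ratio of atretic over plateau follicles (x axis) in each of the 4 pairs for the member probes (red bars) and for the means of granulosa, theca, stroma, smooth muscle and pericyte, and macrophage marker lists (grey bars). In pair 3 the granulosa list is at 1.84 and the stroma list at -3.32, and FSHR, AMH and AMHR2 are between 2.54 and 3.29.

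Downstream of the receptors, 4 genes of receptor coupling and desensitisation were lower in atretic follicles and none of the genes responsive to FSH passed the threshold. Each gene was read by its brightest probe and called at a fold of 1.5 with an unadjusted limma p of 0.05, which 2.84% of 12941 genes passed as higher and 2.91% as lower in atretic follicles. No gene of any list passed an adjusted p of 0.05, as for all genes (0%). Of 26 tested genes of coupling and desensitisation, from G protein subunits to arrestins, 0 were higher and 4 lower, with a median log2 ratio of -0.05 against 0.0018 over all genes. ADCY6, an adenylate cyclase, had -2.39, -2.64, -1.14 and -1.55 in pairs 1 to 4, a mean of -1.93 ± 0.70. PDE4B, a phosphodiesterase that breaks down cyclic AMP, had -1.52, -1.72, -0.98 and -1.09, a mean of -1.33 ± 0.35. The other probes of these genes did not share the difference, at means of -0.18 and -0.13 for ADCY6 and 0.02 and 0.03 for PDE4B, but they were dimmer. Their mean log2 intensities were 7.32 and 8.61 for ADCY6, against 13.29 for the called probe. For PDE4B they were 6.69 (not tested) and 7.21, against 11.28. All but the ADCY6 probe at 8.61 lay near the negative controls, where a difference can hardly be seen. The 2 calls thus rest on 1 probe each (limma, adjusted p = 0.166 for both).

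The arrestins, which uncouple activated receptors from the G protein, had 1 probe each. ARRB1 had -0.77, -0.88, -2.19 and -0.42 in pairs 1 to 4, a mean of -1.07 ± 0.77 with an unadjusted limma p of 0.016 and an adjusted p of 0.526. ARRB2 had -1.12, -0.51, -0.52 and -0.50, a mean of -0.66 ± 0.31 with an unadjusted limma p of 0.00648 and an adjusted p of 0.375. Both were lower in the atretic follicle of all 4 pairs. Without pair 1 the mean of ARRB2 was -0.51 and no longer reached the fold of 1.5, whereas ADCY6, PDE4B and ARRB1 passed without any 1 of the pairs.

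Of 14 genes that respond to FSH in granulosa cells, 0 were higher and 0 lower, with a median log2 ratio of 0.63. GSTA1, a glutathione transferase of steroidogenic cells, had 2.99, -0.23, 2.95 and 0.11 in pairs 1 to 4 (limma, adjusted p = 0.703). CYP19A1, the aromatase that makes oestradiol, had 0.95, 1.78, 4.60 and -0.67, and NR5A2, a nuclear receptor needed for ovulation in mice, had 0.04, 0.16, 2.06 and 0.63. The other probes of NR5A2 had means of 0.39 and -1.27, against 0.72 by its brightest, and those of CYP19A1 0.66 and 0.97, against 1.67. The signs of CYP19A1 in pairs 2, 3 and 4 were those of AMH and AMHR2, and the list had its highest mean, 1.59, in pair 3, where the granulosa markers were at 1.84 and 7 of its genes are among them. Without pair 3 its median was 0.16, and when each gene was averaged over its probes it was 0.28.

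**Figure D5:**
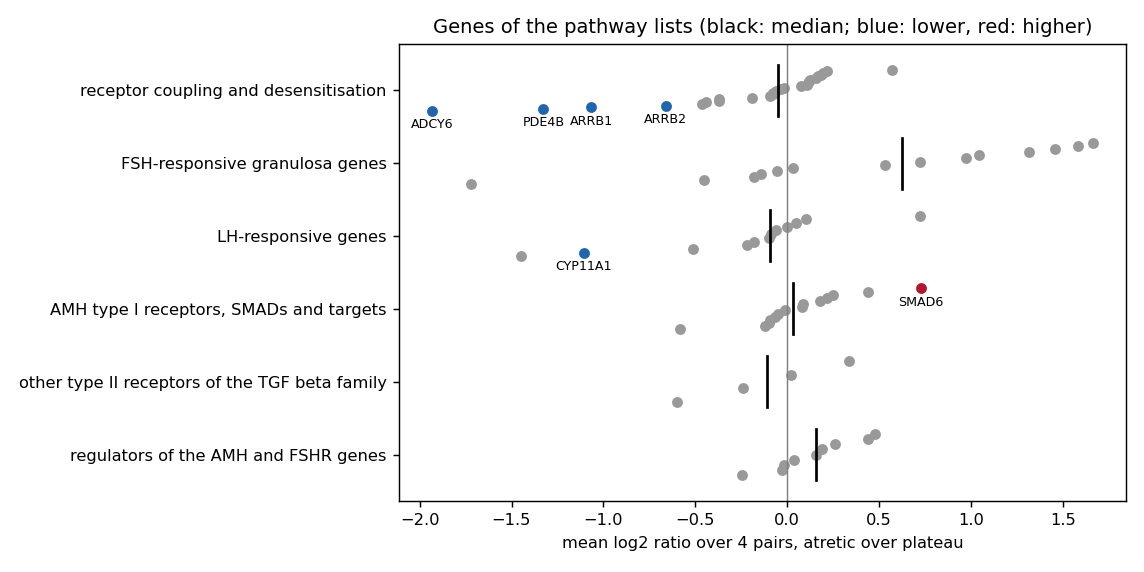
Mean log2 ratio of atretic over plateau follicles over 4 pairs (x axis) of each tested gene of the 6 pathway lists (rows), by its brightest probe, with the median of a list as a black bar. Genes past a fold of 1.5 with an unadjusted p of 0.05 are named, with 5 lower (blue) and 1 higher (red) in atretic follicles.

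Of 12 tested genes that respond to LH, 0 were higher and 1 was lower, with a median of -0.09. CYP11A1, which makes pregnenolone from cholesterol, had 0.36, -0.94, -1.80 and -2.05 in pairs 1 to 4, a mean of -1.11 ± 1.09 with an unadjusted limma p of 0.043 and an adjusted p of 0.644. The call was lost without pair 2, 3 or 4 (unadjusted limma p of 0.096 to 0.148). SCARB1, a receptor for high density lipoprotein, had a mean of -0.51 ± 0.58, and PGR, the progesterone receptor, 0.72 ± 0.93. STAR, which carries cholesterol into mitochondria, had 3.12, -2.04, -5.22 and -1.66 in pairs 1 to 4 (other probes -1.51 and -2.01 on average). It was thus higher in the atretic follicle of pair 1, as LHCGR was, and lower in that of pairs 2, 3 and 4, where LHCGR was lower only in pair 4.

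On the AMH side, 1 of 14 tested type I receptors, SMADs and targets was higher and 0 lower, with a median of 0.03. SMAD6, an inhibitor of the SMADs that AMH activates, had 0.91, -0.08, 1.01 and 1.07 in pairs 1 to 4, a mean of 0.73 ± 0.54 with an unadjusted limma p of 0.0215 and an adjusted p of 0.556. The call was lost without pair 1, 3 or 4 (unadjusted limma p of 0.0644 to 0.0831). BMPR1A, a type I receptor used by AMH in mice, was higher in all 4 pairs with a mean of 0.44 ± 0.25 (limma, adjusted p = 0.567), and passed the unadjusted p but not the fold of 1.5. Its other probes had means of -0.19 and 0.57. ID1, a target of these SMADs, had a mean of -0.58 ± 0.67. The 4 other type II receptors of the family did not pass, with TGFBR2 at -0.60 ± 0.86, ACVR2A at -0.24 ± 0.36 and BMPR2 at 0.33 ± 1.01. The other probes had means of 0.03 and 0.07 for TGFBR2, 0.28 and -0.33 for ACVR2A and -0.04 and 0.35 for BMPR2. Of 9 tested regulators of the AMH and FSHR genes none passed, with a median of 0.16, and USF2, a factor that binds E-boxes, had a mean of 0.48 ± 0.27 (limma, adjusted p = 0.54) and likewise passed the unadjusted p but not the fold. The other probes of USF2 had means of -0.14 and -0.10, and those of WT1 -0.08 and -0.20. ESR2, an oestrogen receptor, had -0.24 ± 0.22 and WT1, a zinc finger factor, 0.19 ± 0.13.

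The genes whose levels were most like those of each member were ranked by Pearson's r over the 8 follicles, among 5586 genes with a mean log2 intensity of at least 8 and a range of at least 1. The values are a description, since 8 follicles that share arrays leave many genes with a high r, from 24 genes at 0.9 or more for FSHR to 92 for AMH. The genes were picked on these same levels, so directions within pairs that they share with a member largely follow from the ranking. Nearest to FSHR were QSOX2 (0.99), ERLIN2, SPON1, FN3KRP and F2R, the last the receptor for thrombin, and all 5 were lower in the atretic follicle of pair 1 and higher in that of pair 3. SPON1, a secreted matrix protein, had log2 ratios of -2.63 and 3.77 in these pairs. Nearest to LHCGR by the brighter probe were LOC503858 (0.99), GRAMD1B, NCEH1, MON1B and ACSM1. GRAMD1B moves cholesterol between membranes and NCEH1 frees cholesterol from its esters, and their log2 ratios in pair 1 were 1.28 and 0.95, against 3.10 for ACSM1.

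Nearest to AMH were GPT (0.99), FDFT1, GSG1L, NINJ1 and PGF. FDFT1, the squalene synthase of cholesterol synthesis, had log2 ratios of -0.10, 1.03, 1.47 and -0.49 in pairs 1 to 4, and PGF, a growth factor of the VEGF family, had 1.33 and 2.17 in pairs 2 and 3. Nearest to AMHR2 were TRIM13 (0.99), ETNK2, ZNF358, E2F6 and INHA. The last encodes the inhibin alpha subunit and was saturated in part, so its differences between follicles are not given and its r of 0.95 is limited by it.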

How the data were processed

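The authors deposited the median intensity of each spot and of its surroundings in both dyes, per the file headers. Their deposited value table of log2 dye ratios, which had been background-subtracted and normalized by loess and quantiles, served as an alternative. It correlated at 0.9997 to 0.9999 with ratios rebuilt from the intensities, which settled its scale and direction, and its column medians were -0.0289 to -0.00543.

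The intensities were corrected by normexp (offset 50), normalized by loess (span 0.3) within arrays and by quantiles between arrays, and turned to atretic over plateau in limma 3.58.1 (R 4.3.3). Array medians were 162 to 283 in Cy5 and 205 to 374 in Cy3, with local backgrounds of 39 to 71 and 21 to 31. Precision is limited by the small number of arrays. The image analysis had marked 7 to 35 spots of each array, 0 of them of a member, and these were left out.

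The labels do not say that equal positions on both slides hold the same follicles. Deviations from the slide mean correlated at 0.761 to 0.866 between equal and -0.488 to -0.0326 between unequal positions, so equal positions were averaged as pairs. Dye and slide cannot be told apart.

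The 4 pair values were fitted with an intercept (lmFit, eBayes) over probes whose mean log2 intensity reached 7, with Benjamini-Hochberg adjustment. Follicle levels were read per channel after loess and Aquantile normalization, so that their differences depart slightly from the ratios. A spot was above background when its level passed the 95th percentile of the negative controls. Symbols came from the platform annotation (21790 probes with 1 symbol, 22004 with none), of which 1524 probes had theirs brought up to date with ARS-UCD2.0 records.

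Named were all member probes, list genes past the fold threshold with up to 3 more of the smallest p, up to 3 marker genes of the largest change in a pair, and the 5 genes most like each member. CDH2, COL1A1, DCN, FBLN1, GATM, INHBA, INSL3, OGN, POSTN, SERPINE2 and the markers never above background were added after their values were seen. So were BMP15, CLDN5, CTSS, HBA, KDR and PTPRC. Members and lists were chosen with earlier results of these data known. Alternatives were other background corrections, normalizations, filters, slides, variance models and a replicate block, and leaving out each pair.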

Additional observations from a re-analysis of the deposited data

How the results depend on the processing

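Across alternative background corrections, normalizations within and between arrays, dim-probe filters, marked spots, the deposited table and the variance model, every member probe that stayed tested kept its sign and its side of the threshold. With only probes above the negative controls in both channels of every array, FSHR alone of the members was tested. FSHR had a mean log2 ratio of -0.068 on slide 206 alone. AMHR2 passed the fold threshold on slide 206 alone (1.32, limma, adjusted p = 0.312), and with the pair as a replicate block at 1.35, without and with a dye term. Probes past the fold threshold numbered 2712 (1557 higher, 1155 lower) on slide 205 alone, 2665 (1225 and 1440) on slide 206 alone, 2216 (1148 and 1068) with the replicate block and 2200 (1153 and 1047) with the dye term, against 1393 (721 and 672). Past an adjusted p of 0.05 were 549 with the replicate block and 436 with the dye term, with 1 correlation for all probes, against 0. The fits with a replicate block count both arrays of a pair, so their p-values can be too small.

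Leaving out each pair in turn gave -0.64 to 0.89 for FSHR (negative without pair 3), 0.27 to 1.85 for the brighter and -0.19 to 0.61 for the dimmer LHCGR probe (negative without pair 1), -0.036 to 1.66 for AMH (negative without pair 3) and 0.71 to 1.88 for AMHR2 (past the threshold without pair 4). The counts of probes were 1287 to 1811, with 587 to 1031 higher and 700 to 803 lower, and 0 past the adjusted threshold. The median of the coupling list was 0.02 without pair 3. Of the 5 genes most like a member, 1 to 3 were shared with the ranking by Spearman's rho and 0 or 1 with that by array log ratios. Follicle levels of members moved by at most 0.15 without Aquantile normalization. With 4 pairs the interval of AMHR2 holds 0, and the ratios of LHCGR, AMH and AMHR2 against follicles not above the negative controls are limited by signal over background.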
